A study of Caenorhabditis elegans with 3 samples.

Results

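The comparison described here set 1 expression array of Caenorhabditis elegans exposed to GO against 1 array of unexposed control worms, and followed gene families and uncharacterised genes over the whole range of differences. Genes entered when a single gene symbol belonged to their probe sets and when the brighter of both arrays reached a log2 level of 6.79, the median of all gene values. By this rule 9303 of 17118 measured genes were described, from 2 of the 3 arrays of the series. Just below this floor lay R144.11, unc-53 and zipt-15, and just above it Y46G5A.15, W08E3.4 and plr-1, all at a brighter level of 6.79. A gene was counted as higher or lower on the GO array at a difference of at least 1 log2 unit, which is 2-fold, a limit of size without a test behind it. The genes exc-7, nhr-63 and pqn-89 fell just short of it at 1.0 and zipt-2.4, ZK353.9 and F12F6.1 just passed it at 1.0, while phat-8, col-33 and catp-3 just missed it and spig-13, R102.4 and nspg-11 just met it at -1.0.

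All worms were wild-type hermaphrodites, young adults of 3 days, raised on plates with OP50 bacteria from cultures synchronised by hypochlorite treatment of eggs. Control and exposed worms alike were kept for 24 h at 20 °C in K-medium, a solution of KCl and NaCl, without food; the title of the control array does not repeat the 24 h, but the shared protocol does. The labels give GO and rGO as abbreviations only, and the published study concerned graphene oxide and its reduced form; the sources used here give no exposure concentration. The rGO array is quoted below for its values alone, because its differences are taken from the same control array as those of the GO array. Each condition had 1 array, so no difference has a replicate error, no test was possible, and every statement compares single hybridisations of RNA from whole worms, in which fewer cells of a type and less RNA per cell cannot be told apart.

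A gene family in the nematode is written as a short class name with a number, and many classes used here group genes by the protein they encode. Others are named for something else: hrg, irg and drd for a response in expression, and bus and mlt for a phenotype. A shared direction in such a class is not one of a protein family. Many of the large ones act where the animal meets its surroundings: the epidermis secretes collagens, cuticlins and other matrix proteins and replaces this cuticle at each molt, and the intestine makes digestive enzymes, antimicrobial proteins and the enzymes that oxidise and conjugate foreign compounds. Hermaphrodites make sperm before they make oocytes, so a young adult carries sperm transcripts along with those of the oocytes. Many genes have only a sequence name, made of the name of a genomic clone and a number, because no gene class has been assigned to them; such genes are called uncharacterised here.

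Of the 9303 genes, 784 (8.43%) passed 2-fold on the higher side with GO and 908 (9.76%) on the lower side, which is 18.2% in either direction. The differences were narrow in the middle and longer on the lower side. The median difference was 0.03 log2 units, the middle 50% of genes lay between -0.23 and 0.41, the 1st percentile was at -3.63 and the 99th at 2.44. At 4-fold or more, 165 genes were higher and 381 lower. The dimmer array was below 6.24 for 552 of the 1692 counted genes; 6.24 is the top level among 8 probe sets that have no target in the worm, and folds of such genes are given as "at least", taken against that level. Against that level 2-fold was still passed by 702 higher and 807 lower genes. The 2 or more probe sets of a gene lay over 1 unit apart in their differences for 86 counted genes, and 809 of the 9303 genes had identical values on both arrays.

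The array's own controls were not level. All 24 probe sets for added bacterial transcripts were lower with GO (median -1.55), as were all 18 hybridisation controls (median -0.62). The gap between the ends of worm control transcripts was wider on the GO array for actin (3.02 against 1.87) and gapdh (1.78 against 1.39) and about equal for ubiquitin (4.85 against 5.02) and catalase (4.72 against 4.84). Markers of tissues gave a mixed picture. The 6 sperm markers above the floor, of 8 measured, and all 5 markers of the adult epidermis were lower, 5 of 7 markers of the molting epidermis and 2 of 6 neuronal markers were higher, and none of 8 oocyte and embryo markers reached 2-fold. Of 7 intestinal markers 1 was lower, of 5 body wall muscle markers 2 were lower, and of 4 pharyngeal markers 1 was higher. Of 5 markers of males none reached the floor and 4 were below 6.24 on all 3 arrays. The share of these tissue and control differences in the family results below was not tested.

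Uncharacterised genes were counted more often than named ones, mostly on the lower side. Of 3126 uncharacterised genes above the floor, 290 (9.28%) were higher and 388 (12.4%) lower, which is 21.7% in all. Of 6177 named genes, 494 (8.0%) were higher and 520 (8.42%) lower, which is 16.4%. Their medians were 0.00 and 0.07. At 4-fold or more, 68 uncharacterised genes were higher and 171 lower. Uncharacterised genes were also dimmer, with a median control level of 8.27 against 8.92, and 203 of the 388 lower ones had a GO level below 6.24, against 126 of the 520 lower named genes. Split into 4 equal classes of brightness, from dim to bright, the counted share was 23.3%, 23.5%, 21.6% and 16.2% for uncharacterised genes and 17%, 20.7%, 13.3% and 15.2% for named genes. The gap on the lower side was widest among the dimmest genes, where 14.6% of uncharacterised and 6.07% of named genes were lower; in the brightest class these shares were 9.71% and 11%. Among the 5196 genes read by no probe set that shares probes with other transcripts, the counted share was 20.2% in all and 22.7% for the 2025 uncharacterised ones.

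**Figure D1:**
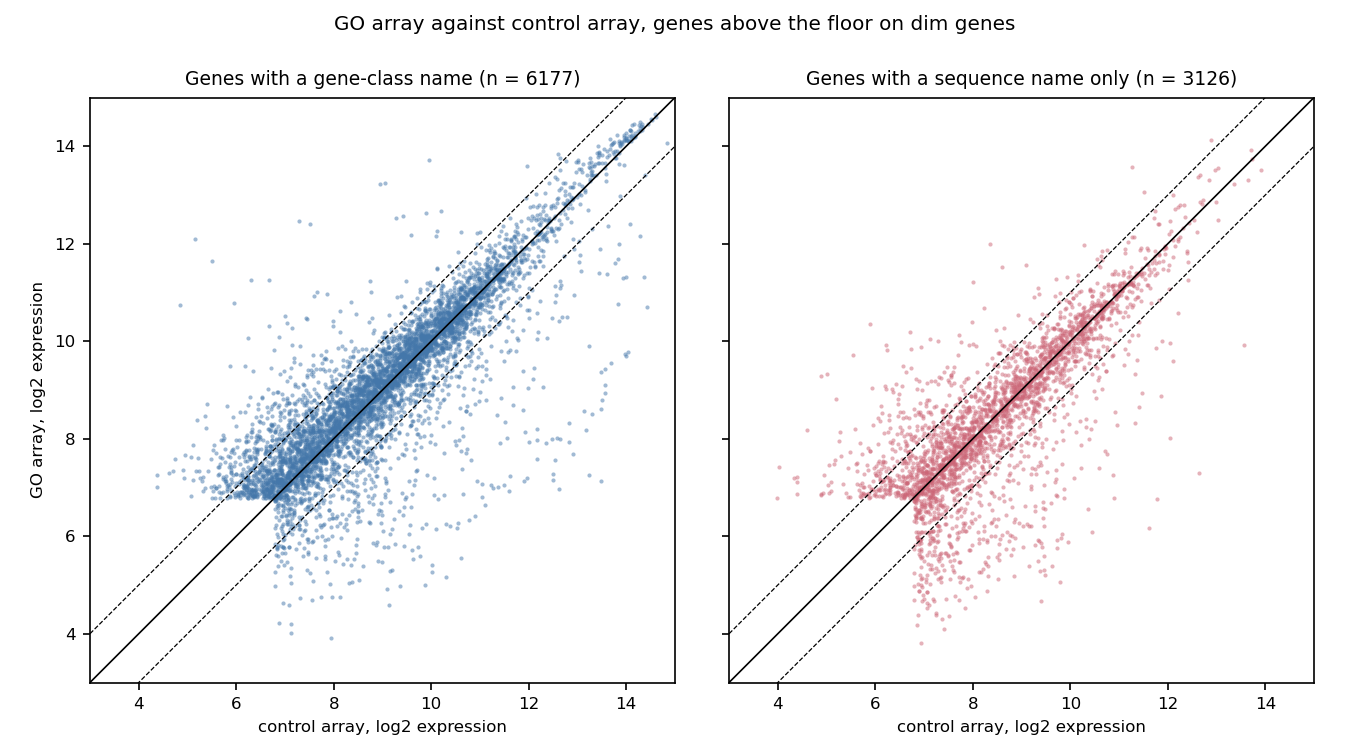
Log2 expression on the GO array (vertical axis) against the control array (horizontal axis) for the 6177 named genes on the left and the 3126 uncharacterised genes on the right; each point is a gene, the solid line marks equal levels and the dashed lines a 2-fold difference. The empty corner at the lower left is the floor of 6.79, and more points of both kinds lie far below the lines than far above them.

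Among 76 gene families with 10 or more genes above the floor, 31 had a larger counted share than the 18.2% of all genes and 21 had no counted gene at all. These families held 1562 genes, 337 of them counted. Among the 20 families described by their largest counted shares, which start at 30%, lower genes were in the majority in 11, higher genes in 7, and both were equal in 2. The last 2 places fell within a tie at 30%: klp (2 higher and 1 lower of 10) and srlf (1 higher and 2 lower of 10) had the same share as acdh and cpg. Majorities here are among counted genes only, and in many of these families more members stayed under 2-fold than passed it.

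**Figure D2:**
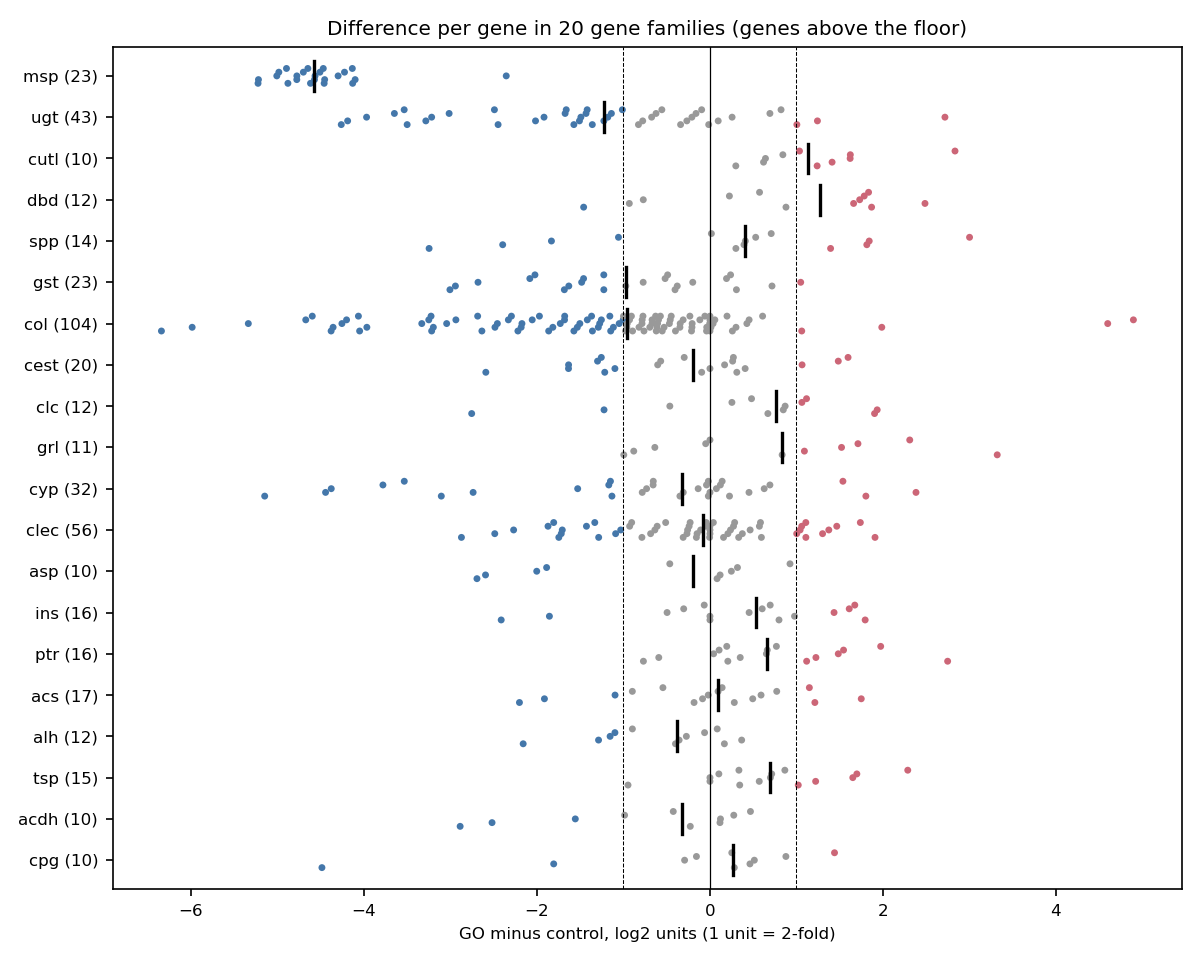
Difference GO minus control in log2 units (horizontal axis) for every gene above the floor in the 20 families with the largest share of genes at least 2-fold apart; the number of genes stands in brackets, black bars are medians, and dashed lines mark 2-fold. The msp genes sit together between -5.22 and -2.36, the cutl genes all lie above 0, and the spp and clec genes spread to both sides.

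Among conjugating enzymes of detoxification, lower genes outnumbered higher ones. UDP-glucuronosyltransferases (ugt) add a sugar to small molecules, and 25 of 43 were lower and 3 higher (median -1.23 against 0.03 for all genes). The level of ugt-8 was 10.54 for control, 6.28 for GO and 6.43 for rGO, a 19.2-fold difference between GO and control. In the other direction ugt-57 was at 4.94, 7.66 and 5.80, at least 2.67-fold higher on the GO array. For ugt-8 both exposed arrays were low, whereas ugt-57 was above background on the GO array alone. With no floor on dim genes the family median was -0.65 over 64 genes. Glutathione S-transferases (gst), which attach glutathione, were lower in 11 of 23 and higher in 1 (median -0.97, or -0.39 over 40 genes with no floor). The largest difference was that of gst-26, at 10.72, 7.71 and 7.41 on the control, GO and rGO arrays, and the single higher member was gst-20, at 8.56, 9.61 and 9.87.

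The oxidising and hydrolysing enzymes were more divided. Cytochrome P450 genes (cyp) were lower in 11 of 32 and higher in 3, with a median of -0.33, and the 4 largest differences all belonged to the cyp-35 subfamily. The level of cyp-35A4 was 10.31 for control, 5.16 for GO and 5.13 for rGO, a GO level at least 16.8-fold below control. By contrast cyp-37B1 was at 6.65, 9.03 and 10.47 and so 5.21-fold higher. With no floor the cyp median was 0.00. Carboxylesterases (cest) cut ester bonds of lipids and foreign compounds, and 7 of 20 were lower and 3 higher; cest-33 was 6.03-fold lower at 10.66, 8.07 and 8.22, and cest-17 3.02-fold higher at 6.71, 8.31 and 7.97. Their median of -0.20 turned to 0.03 without probe sets that share probes, and it was 0.00 with no floor.

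Enzymes of fatty acid activation and oxidation also differed among themselves. Of 10 acyl-CoA dehydrogenases (acdh), which carry out the first step of beta-oxidation, 3 were lower and none higher. Of these 10 genes, 6 were read only by probe sets that share probes, acdh-9 among them. The level of acdh-8 was 9.24, 6.35 and 7.41 on the control, GO and rGO arrays (7.40-fold), that of acdh-2 was 9.40, 6.88 and 5.95, and that of acdh-9 was 10.11, 8.56 and 8.95. Of 12 aldehyde dehydrogenases (alh) 4 were lower and none higher, led by alh-5 at 9.11, 6.95 and 8.06; without probe sets that share probes 1 of 8 was lower. Acyl-CoA synthetases (acs), which activate fatty acids, were equally divided, with 3 of 17 in each direction. The lowest was acs-1 at 10.99, 8.78 and 8.75, and the highest acs-20, at 7.37, 9.12 and 7.46.

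Collagens and sperm proteins held large lower differences. The numbered col genes encode cuticle collagens, and 49 of 104 were lower and 4 higher (median -0.96). The level of col-129 was 13.48 for control, 7.14 for GO and 11 for rGO, an 81.1-fold difference. In the opposite direction col-165 was at 7.51, 12.41 and 10.04, 29.8-fold higher on the GO array. For both genes the rGO level lay between the other 2. The 5 markers of the adult epidermis, all of them collagens, lay at 7.12 to 13.47 on the control array and at 5.34 to 11.90 on the GO array. Collagen genes are alike in sequence, and without probe sets that share probes 27 of 67 were lower and 3 higher (median -0.77). The msp genes encode the major sperm protein that drives the crawling of nematode sperm, and 23 of 23 were lower, between -5.22 and -2.36. Of the 23, 22 were read only by probe sets that share probes, so these are not separate measurements; without such probe sets a single msp gene was left, at -1.83.

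In 3 families of the apical matrix and the epidermal membrane, counted genes were higher and none was lower. Cuticlin-like genes (cutl) encode matrix proteins with a zona pellucida domain, and 6 of 10 above the floor were higher and none lower, with a median of 1.14; 28 were measured, so most lay below the floor. The level of cutl-16 was 5.39, 8.22 and 6.13 on the control, GO and rGO arrays (at least 3.95-fold higher on the GO array), and that of cutl-26 was 8.19, 9.61 and 8.45 (2.66-fold). Of 11 ground-like genes (grl), which are distant relatives of hedgehog signals, 5 were higher and none lower, although grl-4, at -1.0, passes the rule when differences are centred on their median or the arrays are quantile normalised again. Here grl-15 was at 8.0, 10.31 and 7.76 and grl-1 at 5.40, 8.72 and 6.29, so that the GO array alone was high for both. Among 16 patched-related genes (ptr), which encode membrane proteins with a sterol-sensing domain, 6 were higher and none lower, led by ptr-4 at 5.12, 7.86 and 5.57. The rGO medians of these families were 0.24 for cutl and -0.31 for grl, beside GO medians of 1.14 and 0.83. The floor admits genes through their brighter array, and with no floor the GO medians were 0.49 over 28 cutl genes (10 higher), 0.00 over 30 grl genes (7 higher) and 0.36 over 24 ptr genes (7 higher). The 7 markers of the molting epidermis, 3 of which are mlt genes, lay at 5.89 to 7.80 on the control array, at 7.17 to 11.02 on the GO array and at 5.90 to 9.29 on the rGO array.

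Claudin-like, tetraspanin and dbd genes also had more higher than lower members. Claudin-like genes (clc) encode small membrane proteins of the kind found at cell junctions. Of 12 above the floor, out of 23 measured, 4 were higher and 2 lower, with a median of 0.76. With no floor 5 of 23 were higher and 2 lower, with a median of 0.25. The level of clc-14 was 6.65, 8.55 and 7.61, and that of clc-10 was 8.18, 5.43 and 6.17; clc-6, at 1.93, had 3 probe sets 1.54 apart. Tetraspanins (tsp), membrane proteins that organise other proteins into domains, were higher in 5 of 15 and lower in none, with a median of 0.70. Their largest difference was that of tsp-17, at 5.68, 7.97 and 6.34, and the only one near 2-fold on the lower side was tsp-8, at -0.95. Only 2 tsp genes reached a floor at the 75th percentile. With no floor the medians were 0.57 over 17 tsp genes and 0.88 over 13 dbd genes. The 12 dbd genes had 6 higher and 1 lower and the largest median of the 20 families, 1.27, while their rGO median was -0.41. The level of dbd-2 was 8.74 for control, 11.23 for GO and 8.30 for rGO, and that of dbd-20 was 8.49, 7.03 and 6.29.

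Of the digestive and defence families, spp and clec had genes in both directions and asp in the lower direction alone. Saposin-like proteins (spp), small proteins that act on membranes and can kill bacteria, were counted in 8 of 14, with 4 in each direction. The level of spp-4 was 10.63, 7.38 and 7.23 on the control, GO and rGO arrays (9.50-fold lower), whereas that of spp-31 was 7.45, 10.45 and 10.31 (8.01-fold higher), and in both the exposed arrays were close to each other. C-type lectins (clec), sugar-binding proteins often tied to defence, were lower in 13 and higher in 10 of 56 above the floor, out of 220 measured. The largest differences were those of clec-123, at 8.42, 5.54 and 6.36, and of clec-264, at 6.70, 8.61 and 9.75; clec-57, at -2.49, had 2 probe sets 3.21 apart. Aspartyl proteases (asp) digest protein in the intestine and lysosomes, and 4 of 10 were lower and none higher, led by asp-8 at 8.96, 6.27 and 7.0 and asp-12 at 11.42, 8.83 and 9.41.

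The remaining 2 of the 20 families hold signals and matrix proteoglycans. Insulin-like peptides (ins) were higher in 4 of 16 and lower in 2. The level of ins-37 was 8.08, 5.67 and 5.86 (at least 3.58-fold lower), that of ins-26 was 8.13, 6.28 and 7.74, that of ins-34 was 7.75, 9.55 and 7.87 and that of ins-22 was 7.01, 8.69 and 9.01. No common direction joined the insulin-like peptides, and of these 4 genes ins-37 and ins-22 had similar levels on both exposed arrays. Among 10 cpg genes, several of which encode chondroitin proteoglycans of the eggshell, cpg-9 was 22.4-fold lower at 10.90, 6.41 and 6.44, cpg-18 was also lower and cpg-19 was higher. The eggshell members cpg-1 and cpg-2 were under 2-fold, at 0.28 and 0.51.

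Several large families were below the 18.2% of all genes in their counted share. Of 92 nuclear hormone receptors (nhr) above the floor, out of 254 measured, 5 were higher and 3 lower. Among them nhr-114 was 6.08-fold lower, at 9.66, 7.05 and 7.0, and nhr-25 was at 1.58 with 2 probe sets 1.97 apart. Of 40 F-box genes of the fbxa class above the floor, out of 171 measured, 3 were higher and 1 lower; fbxa-24 was at 6.76, 8.94 and 10.16 and fbxa-72 at 8.52, 5.09 and 5.27. Of 23 FMRFamide-like peptide genes (flp) 1 was higher, flp-10, at 7.57, 9.37 and 10.09. Homeobox and Skp1-related genes were above that share. Among 23 homeobox genes of the ceh class above the floor, out of 60 measured, 5 were higher and none lower, a share of 21.7% against 8.43% for all genes: ceh-22 at 2.32, ceh-34 at 1.5, ceh-32 at 1.48, ceh-36 at 1.41 and ceh-43 at 1.16. The floor admits genes through their brighter array, and with no floor 7 of 60 ceh genes were higher, with a median of 0.15. The Skp1-related genes (skr), adaptors of ubiquitin ligases, had 4 of 18 (22.2%) higher and none lower, with skr-21 at 7.18, 9.66 and 7.69 and skr-5 at 4.90, 7.35 and 8.88. The genes of this paragraph were named after their values were seen.

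No gene reached 2-fold in 21 families with 378 genes. Their medians lay between -0.09 and 0.29 and their single differences between -0.92 and 1.0. Beside classes such as bath, idpp and ztf they included 44 cytosolic ribosomal proteins of the large subunit (rpl, median 0.16) and 30 of the small subunit (rps, 0.23), 33 and 24 mitochondrial ribosomal proteins (mrpl and mrps, 0.00 and 0.04), 21 translation initiation factors (eif, 0.25), 23 nuclear pore proteins (npp, 0.13), 13 proteasome regulatory subunits (rpn, 0.11), 15 subunits of the Mediator complex (mdt, 0.06), 10 subunits of RNA polymerase (rpb, -0.03) and 12 genes of cytochrome c oxidase (cox, 0.00). The member of the rps class with the largest difference, rps-7, was at 12.42 for control, 13.24 for GO and 13.59 for rGO. The largest of the rpl class was that of rpl-13A, at 13.43, 14 and 14.15. The BTB and MATH domain gene bath-41, at 8.64, 9.63 and 10.33, and the cell division gene cdc-26, at 7.34, 8.33 and 8.10, came nearest to 2-fold. Some of these genes were read only by probe sets that share probes, rpl-13A and bath-41 among them.

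Among 162 smaller families of 5 to 9 genes above the floor, 79 had no counted gene and 25 had at least 50% counted; the members of these small families were named after their values were seen. In the lipocalin-related family (lpr), whose members act in the apical matrix of epithelia, 6 of 6 above the floor were higher, between 1.3 and 2.49. In all, 7 lpr genes were measured. The floor of 6.79 admits genes through their brighter array, and the median control level of the 6 was 6.48, below it. The level of lpr-3 was 8.13 for control, 10.62 for GO and 8.44 for rGO, and that of lpr-6 was 6.63, 8.65 and 6.89. All 6 had rGO differences of 0.08 to 0.41, and lpr-7 had 2 probe sets 1.96 apart. Of 7 warthog genes (wrt), hedgehog-related like grl, 5 were higher, with wrt-1 at 7.43, 10.47 and 7.73 and wrt-10 at 7.57, 9.71 and 7.89. Of these 7 wrt genes, 5 were read only by probe sets that share probes. Of 5 cuticlins (cut) 3 were higher, with cut-2 at 9.89, 12.62 and 10.67. Of 6 molting genes (mlt) 3 were higher: mlt-8 at 1.82, mlt-9 at 2.26 and mlt-11 at 2.44, the last with 4 probe sets 3.45 apart. For every gene named in these matrix families the rGO level was nearer to the control level than to the GO level.

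Further small families with more higher than lower genes were linker histones, chitinases and neuronal adhesion proteins. Linker histones (hil) bind the DNA between nucleosomes, and 4 of 7 were higher. The level of hil-7 was 9.95, 13.73 and 12.16 (13.8-fold), that of hil-1 was 7.94, 9.28 and 10.52, and hil-5 and hil-4 were under 2-fold at 0.19 and 0.26. Chitinases (cht) cut chitin, and 3 of 5 above the floor were higher, out of 6 measured. The level of cht-5 was 5.95, 10.78 and 7.63 and that of cht-3 was 10.93, 11.99 and 12.08. The median control level of the 5 was 6.61, below the floor of 6.79. The rig genes encode neuronal proteins of the immunoglobulin superfamily, and 3 of 5 were higher, led by rig-5 at 6.17, 8.54 and 6.90. The class bus is named for resistance to a swelling caused by a bacterium that sticks to the cuticle. It is a class of phenotype and not of sequence. The floor admits genes through their brighter array, and 7 of 14 measured bus genes passed it, with a median control level of 6.39. Of these 7 genes, 5 were higher. They were bus-24 (at least 4.67-fold), bus-17 (at least 2.54-fold), bus-8B (5.36-fold, 2 probe sets 2.09 apart), bus-4 (at least 1.85-fold) and bus-5 (2.35-fold), with rGO differences of 0.28, 0.38, 0.61, 0.25 and 0.02.

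Small families of the sperm programme were lower throughout, apart from single members. In the nspd family of nematode-specific peptides 5 of 5 were lower, between -4.36 and -2.74; nspd-1 was at 11.37 for control, 7.01 for GO and 8.85 for rGO, and 4 of the 5 were read only by probe sets that share probes. Of 8 sperm-specific ssp genes 7 were lower. The level of ssp-10 was 11.52, 8.34 and 9.72, ssp-34 was at least 14.5-fold lower, and ssp-37 stood apart at 9.50, 9.98 and 10.12. Of 7 msrp genes 6 were lower, led by msrp-2 at 11.27, 7.0 and 8.66, and msrp-7 was not, at 7.09, 7.30 and 8.43. In the tau tubulin kinase family (ttbk) 4 of 5 were lower and ttbk-7 was higher, at 7.95, 9.60 and 8.48. In the sperm families the rGO level lay between the control and GO levels for nspd-1, ssp-10 and msrp-2. The 8 measured sperm markers, 3 of which belong to msp and ssp, lay at 4.32 to 13.18 on the control array, at 4.12 to 8.17 on the GO array and at 4.12 to 11.65 on the rGO array, and 2 of them were below 6.24 on all 3.

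Small families of digestion and defence held lower genes, with single members going the other way. Serine carboxypeptidases of the cathepsin A kind (ctsa) were lower in 5 of 6, led by ctsa-1.2 at 10.72, 8.56 and 9.58, while ctsa-1.1 had 12.53 on both arrays. Lysozymes (lys), which cut bacterial cell walls, were lower in 4 of 6: lys-7 at 9.97, 7.92 and 9.62, lys-1 at 11.79, 10.02 and 10.08, lys-4 at -1.74 and lys-2 at -1.27. The single higher lysozyme was lys-3, at 4.92, 7.19 and 6.61. Of the 6 lysozymes, 4 were read only by probe sets that share probes. Cysteine proteases of the cathepsin B kind (cpr) were lower in 3 of 8 and higher in 1, with cpr-8 at 8.48, 6.29 and 6.78 and cpr-2 at 6.79, 8.17 and 8.87. Of 6 infection response genes (irg) 3 were lower: irg-8 at 11.89, 8.60 and 7.50, irg-4 at 12.08, 9.23 and 7.65 and irg-5 at 10.86, 9.02 and 7.44. These 3 irg genes were lower still on the rGO array.

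Heme-responsive genes (hrg), some of which encode heme transporters, were lower in 6 of 9 and higher in none. The level of hrg-7 was 11.40 for control, 7.92 for GO and 7.90 for rGO (11.2-fold lower on the GO array), and hrg-4 was at 8.13, 4.76 and 4.76 (at least 3.71-fold). By contrast hrg-13 and hrg-14 were at 0.45 and -0.20. Carbonic anhydrases (cah), which interconvert carbon dioxide and bicarbonate, split by member: cah-4, cah-3 and cah-5 were lower at -1.62, -1.49 and -1.37, and cah-2 and cah-6 higher at 1.29 and 1.09. Both higher members were below background on the control array, so that their folds are bounds of 2.05 and 1.79. Fatty acid elongases (elo) were lower in 3 of 5, with elo-6 at 12.38, 10.07 and 9.67 and elo-5 at 12.63, 10.41 and 9.78. Both elo-6 and elo-5 were read only by probe sets that share probes. The desaturases (fat), which place double bonds in fatty acids, were lower for fat-7 (11.35, 8.49 and 9.37) and fat-5 (8.06, 6.21 and 6.39) and higher for fat-3 (10.94, 12.23 and 13.07) and fat-4 (10.12, 11.51 and 12.23). The lower pair act on saturated chains, and the higher pair make long polyunsaturated ones. The remaining 3 of 7 desaturases were under 2-fold, so this division covers the counted genes only. All 4 drd genes above the floor, a class named for lower expression under dietary restriction, were lower. They were drd-1 at -2.99, drd-10 at -2.91, drd-5 at -1.82 and drd-50 at -1.75. This class is smaller than the families of 5 to 9 genes and was picked with its values known.

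Lists of pathways and organelles, which cut across families, held a smaller share of higher genes and a larger share of lower genes than the background. Over 27 lists with 395 genes above the floor, 22 (5.57%) were higher and 51 (12.9%) lower, beside 8.43% and 9.76% of all genes. Lower genes alone were found in 11 lists, higher genes alone in 6, both in 6, and neither in 4. The lists without a counted gene were the nuclear pore (22 genes, median 0.16), the spliceosome with spliced leader trans-splicing (24, -0.01), the nucleolus with ribosome biogenesis (26, 0.00) and the glyoxylate cycle with gluconeogenesis (9, -0.14).

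**Figure D3:**
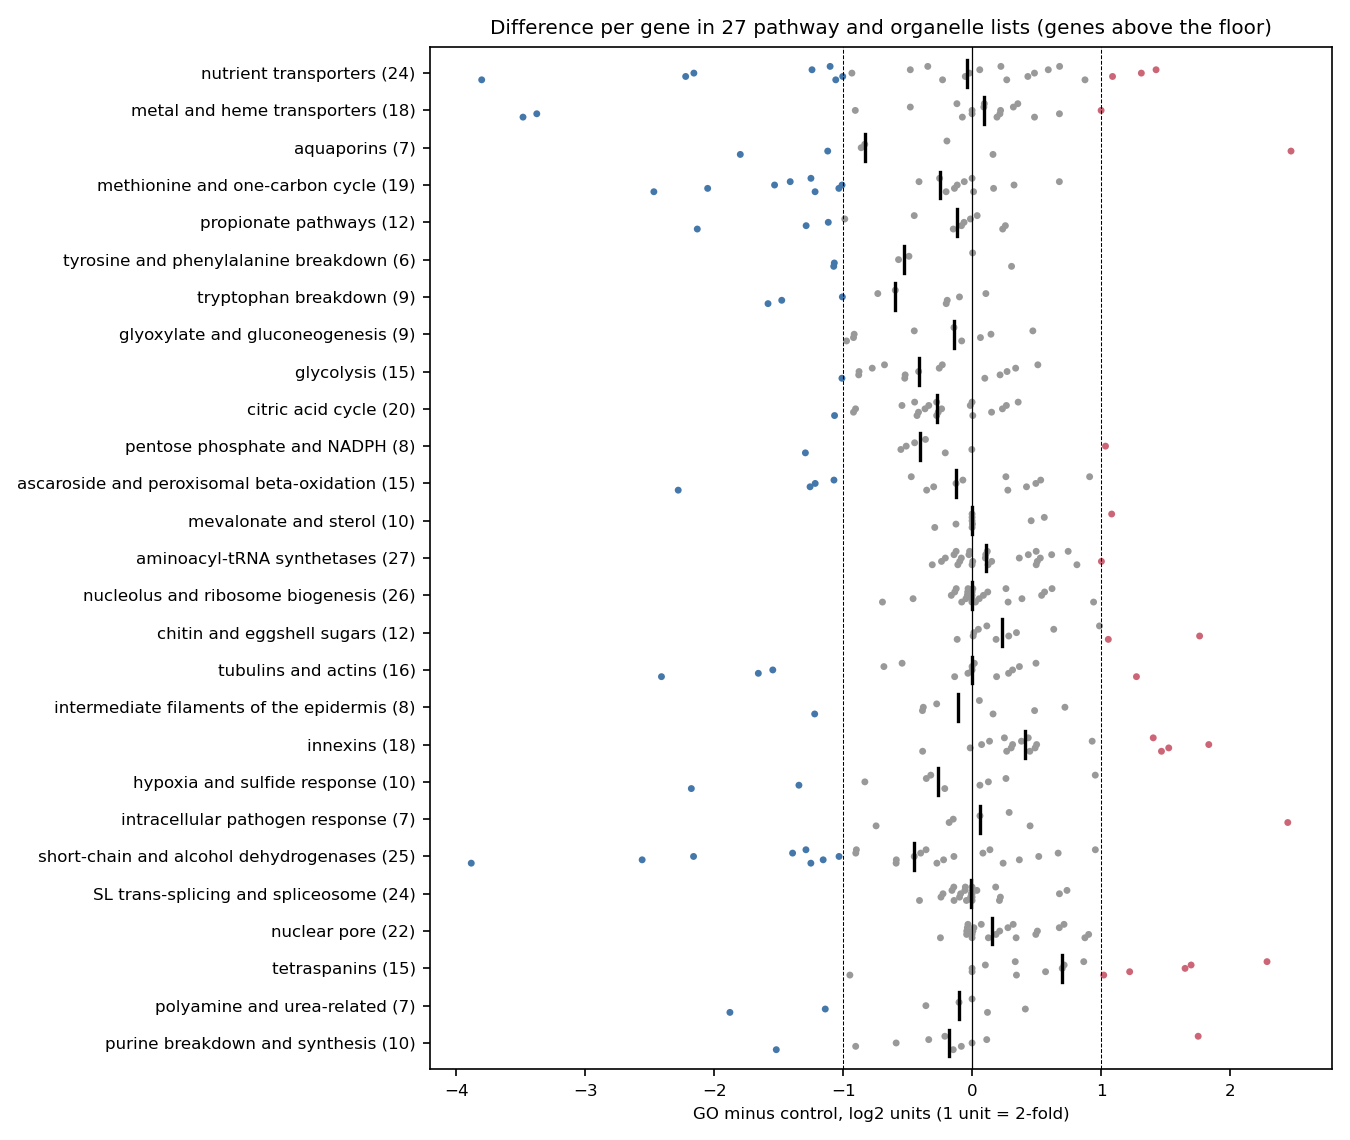
Difference GO minus control in log2 units (horizontal axis) for every gene above the floor in 27 lists of pathways and organelles, with the number of genes in brackets, black bars for medians and dashed lines at 2-fold. Lists of amino acid, one-carbon and dehydrogenase enzymes extend to the left, tetraspanins and innexins to the right, and lists of nuclear machinery stay between the dashed lines.

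Lists of amino acid and one-carbon metabolism held lower genes and no higher ones. Of 19 genes of the methionine and one-carbon cycle 8 were lower and none higher. The methionine synthase gene metr-1 was at 10.51, 9.29 and 9.78 on the control, GO and rGO arrays, the S-adenosylmethionine synthetase sams-1 at 11.38, 10.34 and 9.99, and its relative sams-5 at 9.66, 7.61 and 7.36. The amine methyltransferase gene anmt-2 had the largest difference, 5.53-fold, while sams-4 was at 11.50, 11.51 and 11.42. The phosphoethanolamine methyltransferases, which make choline for membranes, stood on opposite sides: pmt-2 was lower at 12.65, 11.24 and 11.77, and pmt-1, at 11.53, 12.21 and 13.07, was not counted. Breakdown of tryptophan had 3 of 9 lower (tdo-2, the first enzyme, at -1.01, kynu-1 at -1.48 and haao-1 at -1.58) and that of tyrosine and phenylalanine 2 of 6 (hpd-1 and fah-1, both at -1.07).

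Propionate, a toxic product of the breakdown of some amino acids, is removed by a pathway that needs vitamin B12 or by a shunt that does not. Of 5 shunt genes 3 were lower and 2 were under 2-fold. The first, acdh-1, was at 13.29 for control, 12.30 for GO and 12.04 for rGO (-0.99), ech-6 at 13.05, 11.76 and 11.40, hach-1 at 10.80, 9.69 and 9.76, and hphd-1 at 12.18, 10.05 and 9.37. The last enzyme of the shunt, alh-8, was at 12.09, 12.03 and 12.74. The 7 genes of the pathway that needs vitamin B12 all lay between -0.45 and 0.26, with mmcm-1, the mutase, at 0.04. This split of the list was made after the values were seen, and alh-8 did not follow the other 4 shunt genes. Without probe sets that share probes 6 genes of both branches were left, 1 of them lower.

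Central carbon metabolism shifted little gene by gene. Of 15 glycolytic genes aldo-1, an aldolase, was lower at -1.01 and 14 were under 2-fold, with a median of -0.41; of 20 genes of the citric acid cycle suca-1, a succinyl-CoA ligase subunit, was lower at -1.07 and 19 were under 2-fold, with a median of -0.27. Both medians lay below the 0.03 of all genes, and on the rGO array they were -0.01 and 0.15. In the gluconeogenesis list fbp-1 was at 11.52, 10.55 and 10.60 and pck-1 at 11.76, 12.23 and 11.85. In the pentose phosphate list the uncharacterised T25B9.9 was lower at 11.13, 9.84 and 9.89 and nnt-1, the nicotinamide nucleotide transhydrogenase, higher at 7.42, 8.46 and 9.46. The 27 aminoacyl-tRNA synthetases had a median of 0.11 and a single counted gene, sars-1, at 10.59, 11.60 and 12.04.

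Dehydrogenases and nutrient transporters held 8 and 7 lower genes. Of 25 short-chain, alcohol and aldehyde dehydrogenases 8 were lower and none higher. Here dhs-23 was at 9.19, 5.31 and 5.46 (at least 7.74-fold) and dhs-25 at 10.27, 7.71 and 7.23 (5.89-fold). Of 24 nutrient transporters 7 were lower and 3 higher. The folate transporter gene folt-2 was 13.9-fold lower, at 10.94, 7.14 and 6.65, while its relative folt-1 was at 7.58, 7.84 and 7.84. The intestinal peptide transporter pept-1 was at 10.23, 8.99 and 8.72, the sugar transporter swt-7 at 10.72, 8.57 and 8.78, and the inositol transporters hmit-1.1 and hmit-1.3 went apart, at -2.22 and 1.43. Of 7 aquaporins aqp-2 was higher, at 10.21, 12.68 and 11.30, and aqp-7 and aqp-8 lower, at -1.80 and -1.12.

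The lists of innexins (22.2% counted), tubulins and actins (25%) and the hypoxia and sulfide response (20%) lay somewhat above the 18.2% of all genes. Of 18 innexins, the subunits of invertebrate gap junctions, 4 were higher and none lower: inx-6 at 6.19, 8.03 and 7.94, inx-1 at 6.67, 8.20 and 7.15, unc-9 at 6.69, 8.16 and 7.22, and inx-2 at 8.83, 10.23 and 8.80. Only inx-6 had a like level on both exposed arrays. Among 16 tubulins and actins tba-4, act-5 (the actin of the intestinal brush border) and tbb-6 were lower at -2.41, -1.66 and -1.55 and tbb-4 was higher at 1.27. The hypoxia and sulfide list had rhy-1 at 10.07, 7.90 and 7.76 and cysl-2 at 9.98, 8.63 and 8.0 as its 2 lower genes of 10. Of 28 genes listed for the response to intracellular pathogens, 7 were above the floor and skr-5 alone was counted; the regulators pals-22 and pals-25 were at 0.45 and 0.29. The remaining lists had 1 to 4 counted genes each: 4 lower of 15 for ascarosides and peroxisomal beta-oxidation, 2 lower of 7 for polyamines, 1 higher and 2 lower of 18 for metal and heme transport, 1 in each direction of 10 for purines, 2 higher of 12 for chitin, 1 higher of 10 for the mevalonate pathway and 1 lower of 8 for intermediate filaments. Their leading genes were acox-1.2, an acyl-CoA oxidase, at 7.82, 5.54 and 5.92, and smd-1, a decarboxylase of polyamine synthesis, at -1.88 with probe sets 1.4 apart.

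Genes of the mitochondrial genome and genes without a protein product behaved in several ways. The 8 genes of the mitochondrial genome lay between -0.13 (COX2) and 0.32 (ND1), and none was counted; COX1 was at 13.09, 13.18 and 13.18 on the control, GO and rGO arrays. The ribosomal RNA gene rrn-3.1 was at 9.05, 13.25 and 13.51, with 5 probe sets 1.3 apart in their differences. The non-coding RNA tts-2 was at 9.27, 12.52 and 11.20 (9.48-fold higher) and tts-1 at 12.65, 13.76 and 13.88 (2.15-fold). The added poly-A controls were lower on the GO array by a median of -1.55, and their part in these values was not tested. Of 88 pseudogenes above the floor 4 (4.55%) were higher and 8 (9.09%) lower, beside 8.43% and 9.76% of all genes. The largest pseudogene difference was that of ZK546.3, 16.5-fold lower at 12.05, 8.01 and 10.57 and read only by a probe set that shares probes. The pseudogene C33D9.5 was at least 5.39-fold higher.

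Differences of uncharacterised genes ran from -5.45 to 4.46, inside the range of named genes, which ran from -6.34 to 6.95. The 12 uncharacterised genes with the largest lower differences lay between -5.45 and -4.07, with control levels of 9.38 to 12.65 and GO levels of 4.67 to 7.30. ZK1248.4 was at 11.62 for control, 6.17 for GO and 8.99 for rGO (at least 41.5-fold between control and GO), F58A6.9 at 12.65, 7.30 and 10.33 (40.8-fold), and T13F3.6 at 11.79, 6.75 and 7.13 (32.7-fold). These 3 were strong on the control array and near background on the GO array, and of them T13F3.6 alone was nearly as low on the rGO array. C34D4.3, C27D6.3, Y38C1AA.7, F53B6.4, C33F10.1 and T23G11.1 followed at -4.74 to -4.15, all with GO levels below 6.24, and C14F11.4 at -4.11 with a GO level of 6.79. F18E3.11 was at 9.38, 5.29 and 4.81 and F55G11.2 at 9.95, 5.89 and 5.5. The rGO level lay between control and GO for 10 of the 12 and below the GO level for F18E3.11 and F55G11.2. Of the 12, 3 were read only by probe sets that share probes (ZK1248.4, F58A6.9 and F53B6.4).

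The 12 uncharacterised genes with the largest higher differences lay between 3.22 and 4.46, with GO levels of 7.42 to 11.99. Y110A2AL.4 was at 5.90 for control, 10.36 for GO and 8.45 for rGO, at least 17.4-fold higher, and both C46A5.4 (4.88, 9.28 and 6.71) and ZK675.4 (5.01, 9.33 and 6.34) were also below 6.24 on the control array. C54C8.12, at 5.54, 9.72 and 9.9, was the only 1 of the 12 whose rGO level passed its GO level. T20F5.4, Y97E10AR.1, Y37A1B.7 and R07C12.1 shared such a low control level, with folds of at least 12.7, 5.93, 3.83 and 2.26, and the 2 probe sets of Y97E10AR.1 lay 2.43 apart. Exact folds could be given for F13E9.11 (12.5-fold, at 8.35, 11.99 and 10.11), C10F3.7 (11.9-fold), W04A8.4 (11.1-fold) and F07H5.13 (9.32-fold). F07H5.13, at 8.0, 11.22 and 8.36, was high on the GO array alone. For 11 of the 12 the rGO level lay between the other 2. Of the 12, 4 were read only by probe sets that share probes.

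**Figure D4:**
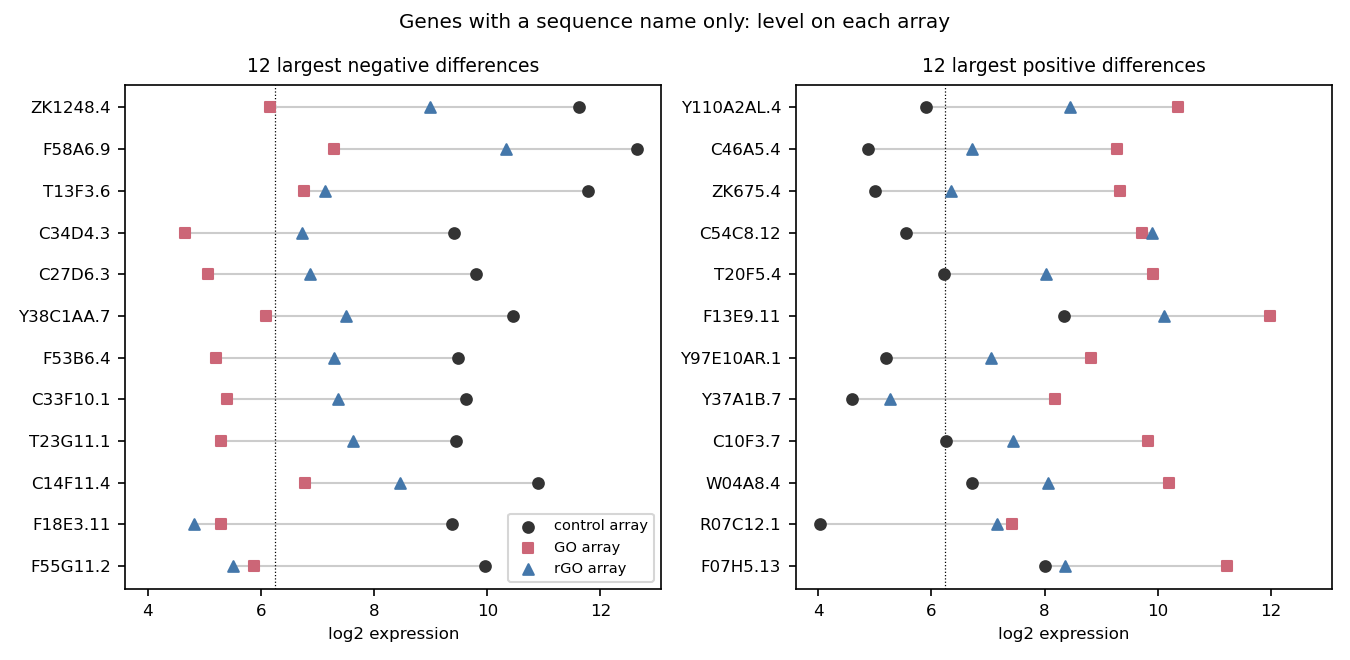
Log2 level on the control array (circles), the GO array (squares) and the rGO array (triangles) for the 12 uncharacterised genes with the largest lower differences (left) and the 12 with the largest higher differences (right); the dotted line is the background level of 6.24. The triangle lies between circle and square for 10 of 12 genes on the left and 11 of 12 on the right.

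Uncharacterised genes with strong signals were counted as well. The 8 higher ones with the brightest signals reached GO levels of 11.74 to 14.13, and all their folds are exact. Probe sets that share probes were the only ones for 4 of these 8 and for 5 of the 8 bright lower ones. F41F3.3 was at 12.88 for control, 14.13 for GO and 12.06 for rGO, and R12E2.14 at 10.27, 11.98 and 9.68, so both were high on the GO array and lower on the rGO array than on the control array. F53A9.8 (11.27, 13.57 and 13.71), F56H9.2 (11.50, 13.06 and 13.39), T12D8.5 (10.75, 11.87 and 12.56) and F17E9.4 (10.66, 11.85 and 12.11) were instead highest on the rGO array. The non-coding W06H8.5, at 1.11, had 2 probe sets 1.53 apart. Among the 8 bright lower ones Y59H11AM.1 was at 13.56, 9.92 and 12.24 (12.5-fold), K12H4.7 at 12.11, 9.59 and 10.89 (5.73-fold) and Y51F10.7 at 12.04, 9.97 and 10.33 (4.19-fold). C35B1.5 (12.21, 10.59 and 10.12) and C23H5.8 (11.88, 10.01 and 8.84) were lower still on the rGO array, and the pseudogene T18H9.11 was at 12.41, 11.26 and 11.53. Strong signal did not go with a difference in general. Of the 5 uncharacterised genes with the brightest signals F41F3.3 alone was counted, and ZC373.2, F22H10.3, Y82E9BR.3 and F44E5.1 lay between -0.40 and 0.21.

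Counted genes had a counted neighbour more often than genes in general. Gene order followed the RefSeq annotation of assembly WBcel235, passing over protein-coding genes below the floor or without a value of their own on the array. The next such gene with a value above the floor after a lower gene was also lower in 191 of 899 cases (21.2%), beside 9.80% over all genes. After a higher gene the next was higher in 104 of 772 cases (13.5%), beside 8.41%, but it was lower about as often, in 103 cases (13.3%). Between genes read by no probe set that shares probes, a lower gene was followed by a lower one in 17.9% (beside 11%), and a higher gene by a higher one in 12% (beside 9.25%) and by a lower one in 16.2%. After lower genes the same direction was thus more frequent than the opposite one, which was found in 9.34% of cases over all genes. After higher genes the 2 raw shares were about equal over all genes, but their backgrounds were not (8.41% higher and 9.80% lower). Relative to these backgrounds the higher share was raised more. Between genes without shared probes the lower share was the larger after higher genes. Neighbours of 1 family are often copies of each other, and genes of an operon are transcribed together; the part of either in these shares was not tested. In all, 322 lower genes fell into 131 runs of 2 or more and 191 higher genes into 87 runs.

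**Figure D5:**
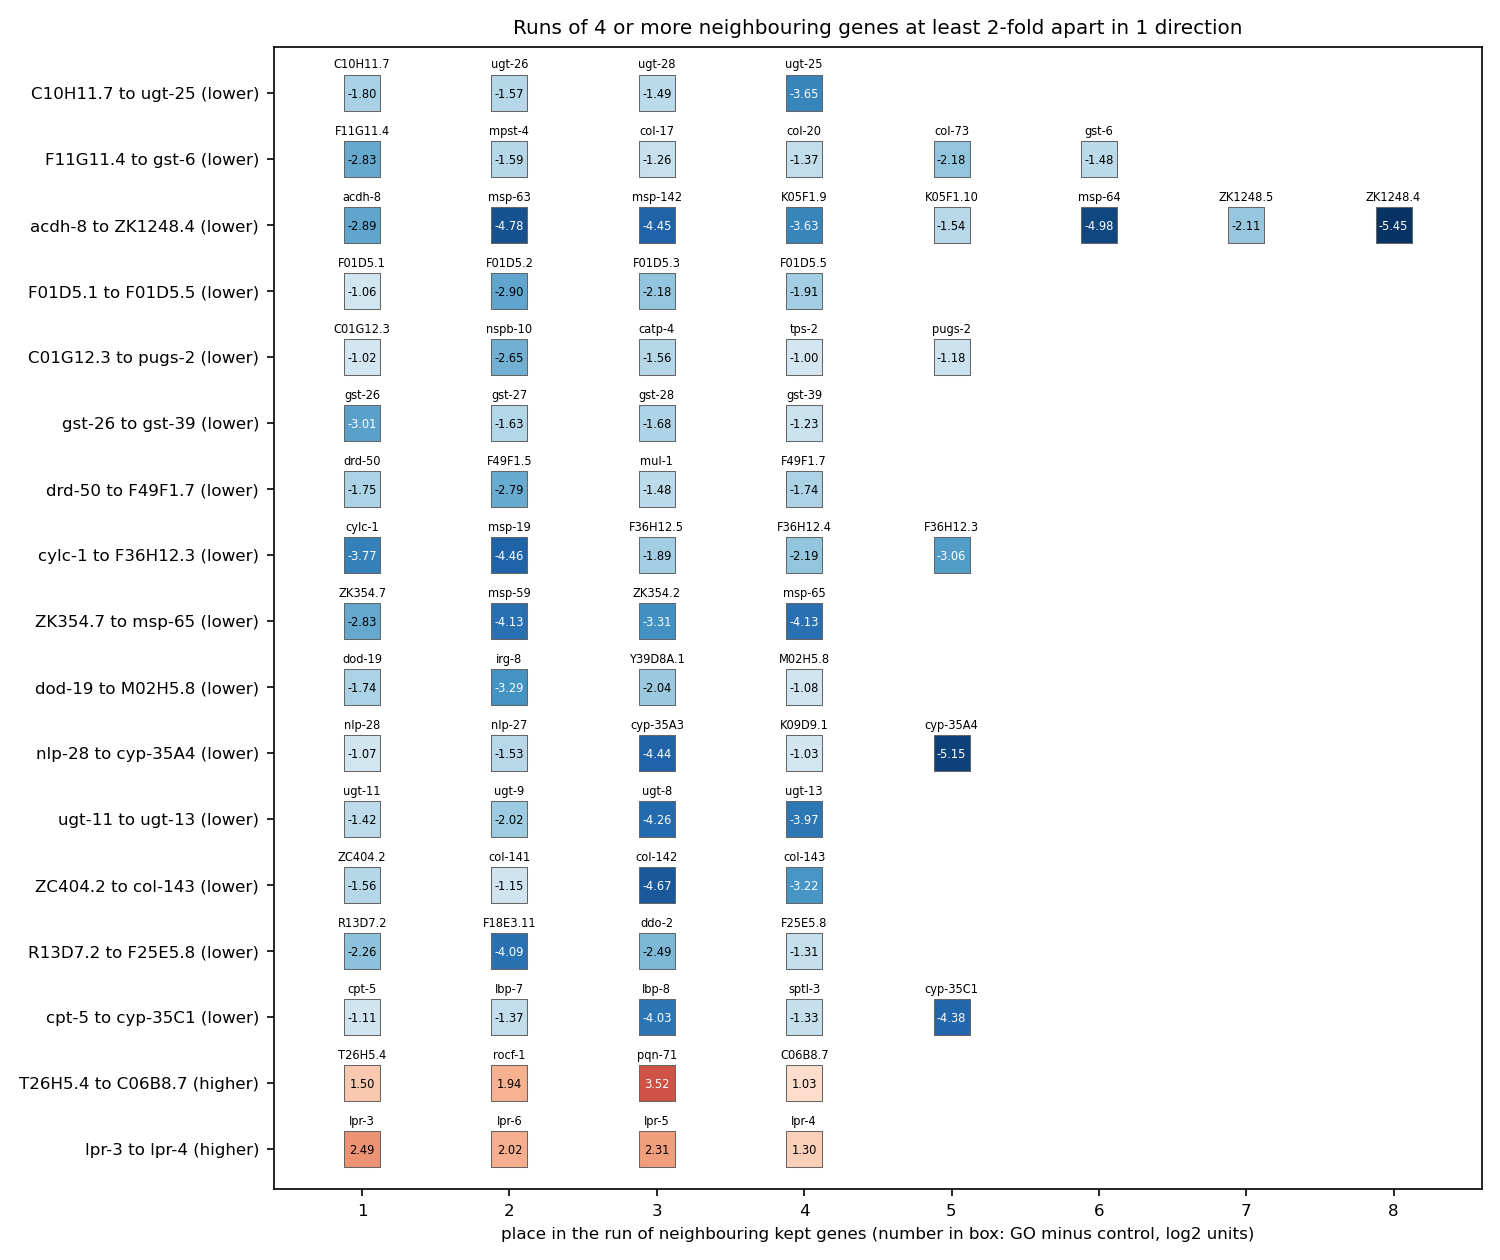
The 17 runs of 4 or more neighbouring genes above the floor that were at least 2-fold apart in 1 direction; each box is a gene, placed by its order in the run, with its difference GO minus control in log2 units and its colour from blue (lower) to red (higher). The labels on the left give the first and last gene, 15 runs are lower and 2 are higher, and the longest holds 8 genes.

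Runs of 4 or more numbered 15 lower and 2 higher, with 78 genes, 27 of them uncharacterised and 27 read only by probe sets that share probes. Members of a run need not be adjacent on the chromosome. The protein-coding genes passed over within a run ranged from 0, as in the run of F01D5 genes, to 13, in the run that starts with cylc-1. The longest had 8 lower genes, from acdh-8 through msp-63, msp-142, K05F1.9, K05F1.10, msp-64 and ZK1248.5 to ZK1248.4, the gene with the largest lower difference among uncharacterised ones. Its uncharacterised members K05F1.9, K05F1.10 and ZK1248.5 were at -3.63, -1.54 and -2.11. Msp genes also stood in the run of cylc-1, msp-19, F36H12.5, F36H12.4 and F36H12.3 and in that of ZK354.7, msp-59, ZK354.2 and msp-65. In these, F36H12.3 was at 7.36, 4.30 and 4.44 on the control, GO and rGO arrays and ZK354.7 at 8.27, 5.44 and 5.72, each by a probe set of its own, while F36H12.5, F36H12.4 and ZK354.2 were read by probe sets that share probes. Detoxification genes made up 3 runs: ugt-11, ugt-9, ugt-8 and ugt-13 (-1.42 to -4.26), gst-26, gst-27, gst-28 and gst-39 (-3.01 to -1.23) and C10H11.7, ugt-26, ugt-28 and ugt-25.

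Other lower runs joined uncharacterised genes to named ones of different kinds. In 1 run all 4 genes were uncharacterised: F01D5.1 at 9.37, 8.32 and 8.63, F01D5.2 at 8.87, 5.97 and 5.72, F01D5.3 at 7.33, 5.14 and 5.07 and F01D5.5 at 10.31, 8.41 and 10.17. On the rGO array F01D5.5 was near its control level, while F01D5.2 and F01D5.3 were as low as on the GO array. In the run of drd-50, F49F1.5, mul-1 (a mucin-like gene) and F49F1.7, F49F1.5 was at 8.80, 6.01 and 8.01. K09D9.1, at -1.03, lay in the run of nlp-28, nlp-27, cyp-35A3 and cyp-35A4, and Y39D8A.1 and M02H5.8 in that of dod-19 and irg-8. F11G11.4, at -2.83, preceded mpst-4, col-17, col-20, col-73 and gst-6, and ZC404.2, at -1.56, preceded col-141, col-142 and col-143. R13D7.2, F18E3.11, ddo-2 and F25E5.8 formed a lower run at -2.26, -4.09, -2.49 and -1.31, with 9 genes passed over. C01G12.3, nspb-10, catp-4, tps-2 and pugs-2 formed another at -1.02, -2.65, -1.56, -1.0 and -1.18, with 2 passed over. The run of cpt-5, lbp-7, lbp-8, sptl-3 and cyp-35C1 held lipid genes, a carnitine palmitoyltransferase, fatty acid binding proteins and a subunit of serine palmitoyltransferase beside a P450; lbp-8 was at 7.94, 3.90 and 3.67.

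The 2 higher runs were of different make. One was the lipocalin-related cluster of lpr-3, lpr-6, lpr-5 and lpr-4, with differences of 2.49, 2.02, 2.31 and 1.3. The second joined T26H5.4, rocf-1, pqn-71 and C06B8.7 and passed over 11 genes between them. In it pqn-71 was at 7.0, 10.52 and 9.43 (11.5-fold higher), T26H5.4 at 5.86, 7.36 and 7.36 and C06B8.7 at 7.68, 8.71 and 8.0. Both exposed arrays were equally high for T26H5.4, whereas C06B8.7 was high on the GO array and near its control level on the rGO array.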

How the data were processed

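RNA of whole worms was hybridised to 1 single-colour expression array for each of 3 conditions. The deposited values are log2 expression per probe set; the submitters' processing notes name GCOS, Affymetrix Expression Console and RMA, which corrects background, normalises quantiles over arrays and summarises probes, without versions. Per the labels' protocols, 300 ng of total RNA was labelled with biotin.

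Of 22625 probe sets, 20766 with a single gene symbol were averaged per gene and 20701 matched the RefSeq table of assembly WBcel235, used for names and gene order. Differences are GO minus control. A family is a gene class of at least 10 genes above the floor; it and the lists were chosen with earlier results of these data known. The text names the largest differences in each direction for the 20 families with the largest counted share, for lists, and for uncharacterised genes, the latter also by signal. Differences of probe sets for 1 gene had a median SD of 0.199 log2 units, and the number of arrays limits precision. No sequences were used. Python 3.11.15, numpy 2.4.6, pandas 2.3.3 and matplotlib 3.10.9 were used, and the counting was tested on simulated data. Alternatives were the floor, the probe set rule, probe sets that share probes, a further quantile normalisation, centring and the size rule.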

Additional observations from a re-analysis of the deposited data

How the results depend on the processing

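The counts of 784 higher and 908 lower genes, and of 290 and 388 among uncharacterised genes, moved by over 1.5 times under 2 alternatives. With the floor at the 75th percentile, which left 4797 genes, 287 were higher and 464 lower, 105 and 148 of them uncharacterised. With at least 3-fold in place of 2-fold, 326 were higher and 551 lower, 131 and 252 of them uncharacterised. Both alternatives count fewer genes by construction. Under no floor, the brightest probe set per gene, no probe sets that share probes, a further quantile normalisation and centring on the median, the counts stayed within 1.5 times, between 622 and 898 higher and between 676 and 1073 lower. Of 389 counted genes among those named by rule, none changed sign, and 6 fell under 2-fold with the brightest probe set, 8 with centring, 8 with quantile normalisation and, of the 253 with a value, 3 without probe sets that share probes. With the brightest probe set, clec-57 was at -0.88 and W06H8.5 at 0.34, both under 2-fold. Family medians moved by 0.199 log2 units or more for 23 families with the floor at the 75th percentile, and 52 did not. With no floor 15 moved and 61 did not, and without probe sets that share probes 10 moved and 66 did not. Medians of lists moved for 7, 2 and 3 lists under these 3 alternatives, and not for 20, 25 and 24. No paired analysis was possible because each condition has a single array. For the same reason no replicate could be left out, the spread between worm cultures is unknown, and a difference between hybridisations cannot be told apart from a difference between conditions. Dim genes limit the folds: the GO or control level was below background for 552 of 1692 counted genes.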

Other observations

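Probe sets outside the gene comparison gave differences of the same range. Of 895 probe sets that the platform annotation assigns to no gene, 212 were above the floor, 28 of them higher with GO by the 2-fold rule and 12 lower, at a median of 0.03 log2 units. Of 887 probe sets assigned to several genes, 401 were above the floor, 15 higher and 99 lower, with a median of -0.09. The counted share was 18.9% for the first kind and 28.4% for the second, beside 18.2% of genes.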
